A study of Bos taurus with 41 samples.

Results

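The 17 libraries described here compare in vivo derived (IVD) bovine conceptus tissue cultured on endometrium with sections cultured alone, and they are 17 of the 41 libraries of the series. They were chosen by their labels as every IVD conceptus library: 8 of mono-culture (IVD Conc, a section in medium without endometrium) and 9 of co-culture (Endo-IVD Conc, a section placed on an endometrial explant). The conceptuses came from Angus-Holstein heifers inseminated with semen of a single bull, were recovered on day 16 of gestation, cut into sections and cultured for 12 h in RPMI medium with serum. The explants were intercaruncular endometrium of cyclic heifers that had not been bred. The 8 mono-culture libraries came from 8 conceptuses and the 9 co-culture libraries from 7 of them, numbered 8, 22, 26, 47, 50, 66 and 71 in the sample codes. Conceptus 5 was sequenced in mono-culture alone, and conceptuses 26 and 47 each gave 2 co-culture sections, placed on endometrium of different uteri. Uteri 14, 19 and 38 each carried sections of 2 conceptuses. The codes of conceptus 71 name uterus 69 for its mono-culture section and uterus 70 for its co-culture section. The conceptus and uterus numbers were read from the sample codes, and a conceptus is the unit that both cultures share. The 12 in vitro produced (IVP) conceptus libraries of the series entered the model and are used for comparison. One of them, IVP co-culture replicate 1, is named a co-culture in its title while its treatment label gives medium alone, and it was kept as co-culture.

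Around this stage of gestation the bovine conceptus is an elongating filament of trophoblast lined by hypoblast, with a small epiblast. It floats free in the uterine lumen, takes its nutrients from uterine secretions and has no circulation of its own red cells. Its trophoblast secretes interferon tau, the signal of maternal recognition in ruminants, together with prostaglandins, pregnancy-associated glycoproteins and trophoblast Kunitz domain proteins. The comparison asks which conceptus transcripts change in level when the tissue lies on endometrium.

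Counted reads per library ran from 65488142 to 104436922 in mono-culture and from 58583647 to 92005370 in co-culture. Levels are given as CPM, the counts of a gene relative to a library size scaled by the TMM method (trimmed mean of M values). Mono-culture replicate 1, the section of conceptus 5, stood apart in its markers. All 13 trophoblast markers were lower there than in each of the other 16 libraries, with a sum of 6070 CPM against 12100 to 73800 CPM, and it was the 1 library whose hypoblast sum (6490 CPM) exceeded its trophoblast sum. Its GATA3, a trophoblast transcription factor, was at 1.85 CPM against 12.0 to 287 CPM elsewhere and a median of 3.54 CPM in endometrium. Its trophoblast markers were thus low, although trophoblast products were present, and they do not show trophoblast as its main tissue. Its hypoblast sum lay within the range of the other libraries (up to 9560 CPM in co-culture). Sums over different genes do not give the relative amounts of tissues, so which tissue was main is not shown. Of 15942 genes tested with edgeR's quasi-likelihood test, 1009 (6.33%) differed between cultures at a Benjamini-Hochberg false discovery rate (FDR) of 0.05, of which 496 (3.11%) were more and 513 (3.22%) less abundantly expressed in co-culture. The median absolute log2 fold change of these genes was 0.71, and 235 of them passed 2-fold, 137 higher and 98 lower. A block for the conceptus, which removes the differences between conceptuses, left 206 genes (1.29%) past FDR, and 168 of these were among the 1009. P-values of the main model take the 17 sections as independent, although sections of one conceptus are not. Single libraries moved the total count: 411 genes passed without co-culture replicate 8, 418 without co-culture replicate 7, 584 without co-culture replicate 1 and 1719 without co-culture replicate 5. Without mono-culture replicate 1, 2, 4, 6 or 8, the count was 492, 627, 629, 531 or 540.

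A stricter group was defined to carry most of the description: 150 genes that passed both with and without the conceptus as a block and moved one way within all 7 conceptuses. Of these, 62 were more abundant in co-culture (median log2 fold change 1.02) and 88 less abundant (median -0.96). They are called the consistent genes here. Among all genes tested, 1147 (7.19%) were higher and 1220 (7.65%) lower in co-culture within all 7 conceptuses, whether or not they passed a test. The lowest and highest libraries of the groups did not overlap for 177 genes (1.11%), of which 49 were consistent genes. Of the 150, 19 belonged to any of the 50 gene lists examined. The share of all tested genes that belong to a list was not counted, so no enrichment or lack of it can be read from this. Without the section of conceptus 5, 492 genes passed, 475 of them among the 1009, and 134 of the 150 consistent genes still passed.

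**Figure D1:**
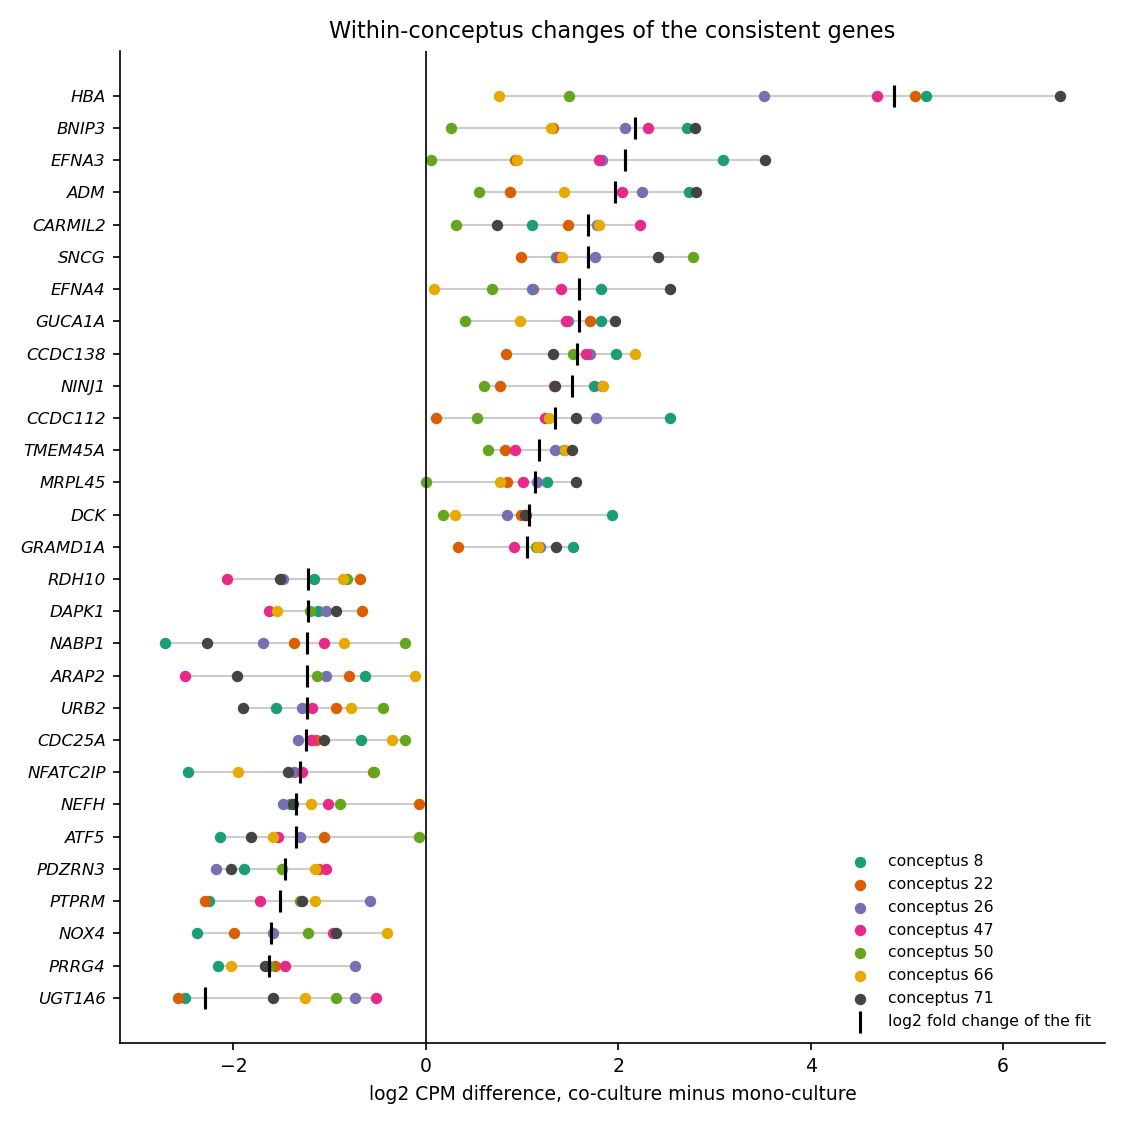
Within-conceptus log2 CPM difference (co-culture minus mono-culture; horizontal axis) of the 15 consistent genes with the highest and 14 of the 15 with the lowest log2 fold change, one coloured point per conceptus and a black bar for the fitted log2 fold change of all libraries. Points lie on one side of 0 for every gene because that was a condition of the choice, and those of conceptus 50 lie nearest to 0 for BNIP3, EFNA3, ADM, CARMIL2 and ATF5.

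The size of the response differed between conceptuses. To describe it, genes were called in a model without any library of one conceptus, and their change was then read in the conceptus left out. The median change in the called direction was 0.885 on the log2 scale in conceptus 8, 0.882 in conceptus 71 and 0.821 in conceptus 47. It was 0.698 in conceptus 26, 0.506 in conceptus 66, 0.411 in conceptus 22 and 0.183 in conceptus 50. Conceptus 50 thus stood lowest, with 65.7% of 1081 genes moving in the called direction, against 89.8% to 99.6% in the other conceptuses. Choosing genes by an unadjusted p under 0.01 instead gave the same lowest conceptus (0.205), but the highest was then conceptus 47 (0.696). The genes scored differed between conceptuses, from 214 for conceptus 26 to 1081 for conceptus 50. Each conceptus had a single mono-culture section, so that differences between sections and between conceptuses cannot be told apart. Conceptuses 50 and 66 were both cultured with uterus 38, which carried no other IVD conceptus, so that conceptus and uterus cannot be told apart in their values.

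Conceptuses 26 and 47, with sections on different uteri, gave a view of this within one conceptus. For conceptus 26 the median change in the called direction was 0.506 on uterus 14 and 0.93 on uterus 39, and for conceptus 47 it was 0.476 on uterus 19 and 1.18 on uterus 54. Over all genes, the median absolute difference from the mono-culture section was 0.393 and 0.639 for the 2 sections of conceptus 26, and the sections differed from each other by 0.559. For conceptus 47 the values were 0.292, 0.666 and 0.539. Over all genes, the sections of one conceptus were thus farther apart than the nearer of them was from mono-culture. Over the genes called without the conceptus this held in conceptus 47 (0.700 against 0.476) but not in conceptus 26 (0.447 against 0.512). In both conceptuses the larger response was in the section whose code names another uterus than the code of the mono-culture section, and no test was made with 2 conceptuses. The codes of conceptus 71 also differ, with uterus 69 in mono-culture and uterus 70 in co-culture, and its median change was 0.882. That of conceptus 8, with uterus 14 in both codes, was 0.885. The sections of conceptus 26 on uterus 39 and conceptus 47 on uterus 54 also had the lowest log2 TMM factors of the IVD libraries (-0.181 and -0.392). Their median changes of ribosomal protein genes were the highest of the co-culture sections (1.06 and 1.61). With 1 section of a conceptus on each uterus, section and uterus cannot be told apart.

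**Figure D2:**
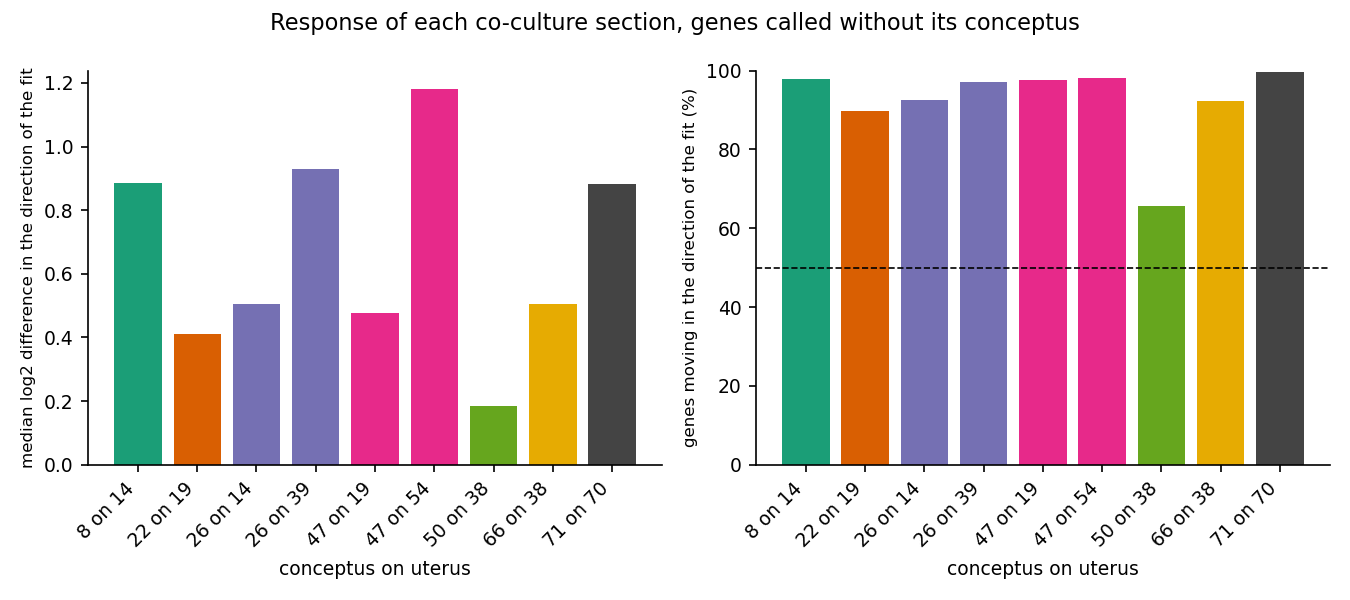
Response of each of the 9 co-culture sections over genes called without its conceptus: median log2 difference from the mono-culture section in the called direction (left) and the percentage of those genes that moved in that direction (right, with a dashed line at 50%). Bars share a colour within a conceptus, the section of conceptus 47 on uterus 54 stands highest at 1.18, and that of conceptus 50 on uterus 38 stands lowest at 0.183.

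Globins showed the largest change of a consistent gene. HBA, an alpha chain of hemoglobin, ran from 0.393 to 1.95 CPM in mono-culture with a median of 0.901, and from 1.13 to 66.6 CPM in co-culture with a median of 33.3. By section, it was 33.3 CPM in conceptus 8, 57.5 in conceptus 22, 11.1 and 45.1 in conceptus 26, 21.3 and 66.6 in conceptus 47, 42.8 in conceptus 71, 1.55 in conceptus 66 and 1.13 in conceptus 50. The 7 sections on uteri 14, 19, 39, 54 and 70 all lay above every mono-culture library, and the 2 sections on uterus 38 lay within the mono-culture range. The log2 fold change was 4.87 (SE 0.78, edgeR adjusted p = 0.00233, and 0.0408 with the conceptus as a block). It was 5.06 without the conceptuses of uterus 38, a setting added after the data were seen. HBM, an alpha-like globin, rose by 3.99 on the log2 scale (SE 0.82, edgeR adjusted p = 0.00782) but missed the threshold once conceptuses were blocked (adjusted p = 0.0798). Its co-culture levels ran from 0.0259 to 3.77 CPM and its mono-culture levels from 0.0458 to 0.208 CPM, and the 2 sections on uterus 38 were again within or below the mono-culture range.

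Few other transcripts of red cells could be tested. ALAS2, the erythroid enzyme that begins heme synthesis, had a median of 2.17 CPM in mono-culture and 0.788 CPM in co-culture (log2 fold change -1.12, SE 0.91, edgeR adjusted p = 0.491). Of 12 erythroid markers, 9 were not among the conceptus genes tested, HBB and SLC4A1 among them. In the globin and heme synthesis list 3 of 23 genes rose (13.0% called against 6.33% of all genes), HBA, HBM and ALAD, an enzyme of heme synthesis in all cells (0.70, SE 0.21, edgeR adjusted p = 0.0473, a call that 12 of the 17 models without a single library did not keep and the block did not either, at 0.137). In 12 endometrial libraries that had carried IVP conceptus sections, HBA ran from 0.583 to 192 CPM (median 46.7), HBM from 1.41 to 7.82 CPM and the adult beta globin HBB from 0 to 3.70 CPM. HBA was thus present in explants, in a range that spans its levels in co-cultured conceptus tissue. Explants of one uterus differed widely, with 20.2 and 0.583 CPM of HBA for uterus 14 and 46.6 and 0.772 CPM for uterus 69, so that one explant does not give the level of a uterus. The one endometrial library of uterus 38 held 46.3 CPM, where the IVD conceptus sections on that uterus held 1.13 and 1.55 CPM. Those of uterus 39 held 79.2 and 58.1 CPM against 45.1 CPM in the section, those of uterus 70 held 72.6 and 192 CPM against 42.8 CPM, and the sections on uterus 14 held 33.3 and 11.1 CPM. Endometrial and conceptus counts were aligned with different programs and scaled separately, so these levels are set side by side without a test. How much of the conceptus signal came from explant blood was not tested. Globin genes have close copies, and how reads that align to several copies were counted was not stated.

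Markers of endometrial cells were followed as a whole. Of the markers tested, 4 of uterine epithelium, 7 of stroma, 7 of endothelium and 6 of leukocytes, 0 passed edgeR's test. All 13 trophoblast markers were measured, at summed levels of 6070 to 64800 CPM in mono-culture and 16100 to 73800 CPM in co-culture against 284 to 2230 CPM in endometrium, and in 16 of the 17 libraries the trophoblast sum was above the hypoblast sum, the exception being that of conceptus 5. The summed level of the stroma markers ran from 16.6 to 280 CPM in mono-culture (highest in conceptus 5) and from 15.1 to 157 CPM in co-culture, against 3660 to 16600 CPM in endometrium. The stromal proteoglycan DCN stayed at or below 2.02 CPM in conceptus libraries against a median of 3270 CPM in endometrium. The endothelial sum ran from 28.6 to 86.0 CPM in mono-culture and from 52.5 to 125 CPM in co-culture, was higher in 6 of 7 conceptuses and differed by 0.548 on the log2 scale (exact sign-flip permutation p = 0.0469, and 0.172 adjusted over 11 library measures). In bulk tissue, fewer cells of a type and less RNA per cell cannot be told apart.

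**Figure D3:**
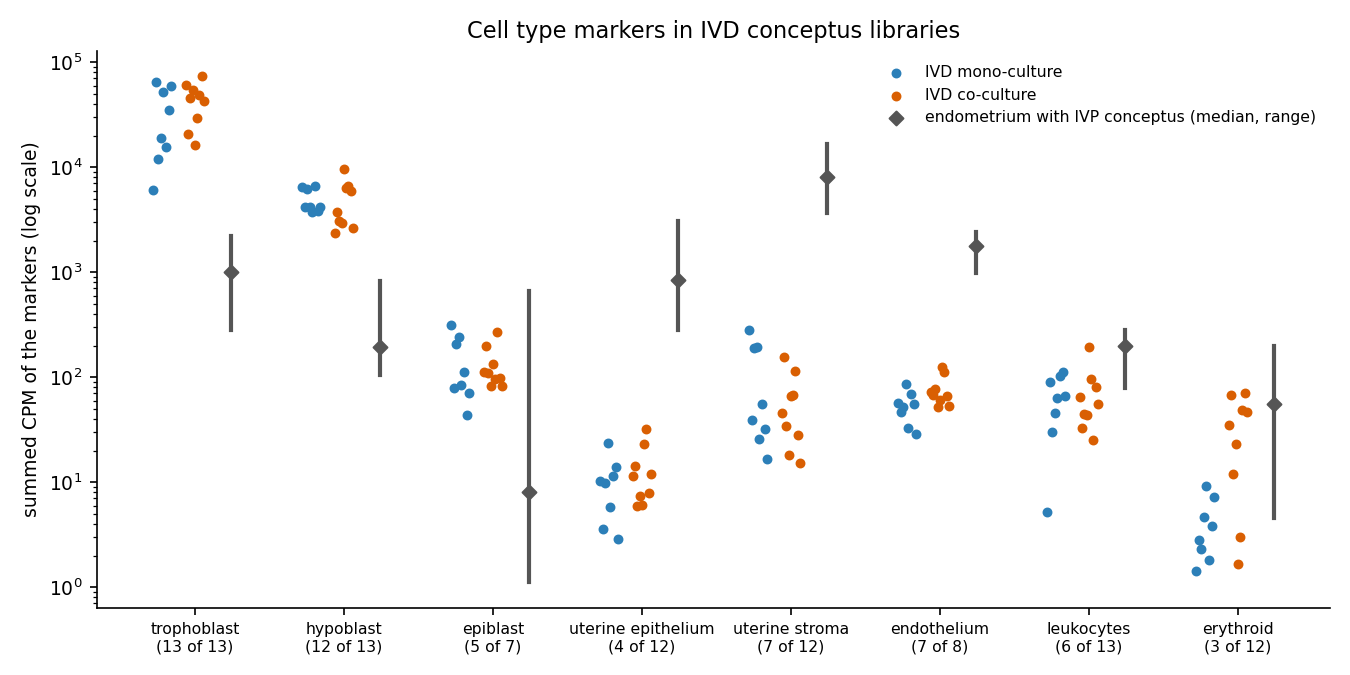
Summed CPM of the tested markers of each cell type (log scale; tested of listed markers in brackets) in the 8 mono-culture and 9 co-culture libraries, one point per library, beside the median and range of the 12 endometrial libraries. Uterine stroma sums of the conceptus libraries reach at most 280 CPM against at least 3660 CPM in endometrium, and 7 of the 9 co-culture libraries lie above every mono-culture library in the erythroid sum.

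Genes induced by low oxygen had the highest median of the lists described, ahead of ribosomal protein genes. That order turned without mono-culture replicate 1 (0.617 against 0.635) or 8 (0.621 against 0.661) and without co-culture replicate 2 or 6. Cells short of oxygen stabilise HIF transcription factors, which switch on genes of mitophagy, glycolysis, vascular tone and collagen modification. Of 48 such genes tested, 13 were more and 1 less abundant in co-culture past FDR (29.2% called against 6.33% of all genes). Their median log2 fold change was 0.69 against -0.02 over all genes. With the conceptus as a block, 4 passed, all higher. The count of higher genes ran from 5 without mono-culture replicate 6 to 20 without co-culture replicate 5, the library of conceptus 50. It was 7 without mono-culture replicate 1, mono-culture replicate 8, co-culture replicate 1 or co-culture replicate 7 and 8 without co-culture replicate 8. By section, the median change of the list was 0.04 in conceptus 50, 0.27 in conceptus 66 and 0.43 to 0.84 in the other 7 sections.

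BNIP3, a mitophagy receptor of the outer mitochondrial membrane, ran from 18.3 to 271 CPM in mono-culture (median 152) and from 135 to 1157 CPM in co-culture (median 662). Its log2 fold change was 2.17 (SE 0.43, edgeR adjusted p = 0.00683, and 0.0347 with the block). The groups overlapped through one co-culture library, that of conceptus 50, which changed by 0.26 on the log2 scale where the other conceptuses changed by 1.30 to 2.80 (lowest and highest). ADM, the vasodilator peptide adrenomedullin, ran from 11.7 to 114 CPM in mono-culture (median 43.4) and from 81.4 to 308 CPM in co-culture (median 163; log2 fold change 1.96, SE 0.44, edgeR adjusted p = 0.0111). ERO1A, the oxidase that drives disulfide formation, had medians of 348 and 932 CPM (log2 fold change 1.60, SE 0.33, edgeR adjusted p = 0.00763, and 0.0313 with the block) and rose within 6 of the 7 conceptuses. The list did not move as one, however. TMEM45B fell by 1.53 on the log2 scale (SE 0.36, edgeR adjusted p = 0.0165), while its paralog TMEM45A rose by 1.17 (SE 0.33, adjusted p = 0.0358), but it did not pass without any one of 10 libraries (adjusted p 0.0258 to 0.0784 over single libraries left out). VEGFA, the vascular growth factor, did not pass (log2 fold change 0.40, SE 0.24, edgeR adjusted p = 0.326), nor did the oxygen sensor EGLN3 (0.76, SE 0.40, adjusted p = 0.243), which was higher within all 7 conceptuses.

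**Figure D4:**
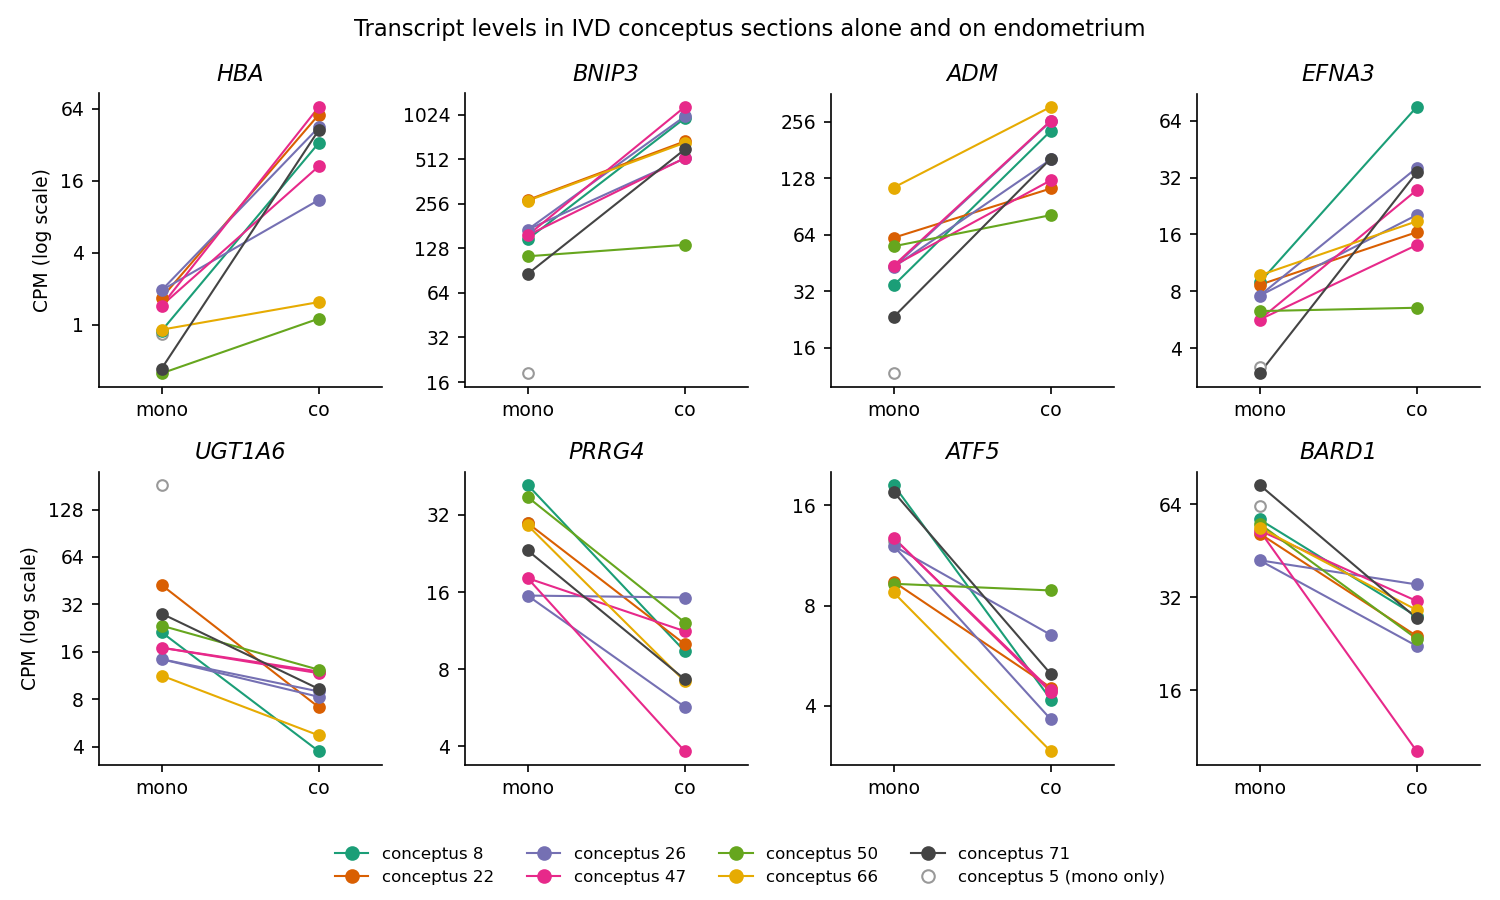
CPM (log scale) of 4 consistent genes that were more abundant and 4 that were less abundant in co-culture, with lines that join the sections of one conceptus and an open circle for conceptus 5. HBA rises least in conceptuses 50 and 66, whose sections lay on uterus 38, BNIP3 and EFNA3 are nearly flat in conceptus 50, and PRRG4 and BARD1 lie lower in every co-culture library than in any mono-culture library.

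Autophagy and glycolysis genes gave few calls, at shares not far from that of all genes. Among 57 autophagy and lysosome genes 4 rose and 0 fell (7.02% called against 6.33% of all genes; median 0.11; 2 without mono-culture replicate 1 or 6 and 8 without co-culture replicate 5), and beside BNIP3 these included MAP1LC3B, the LC3 protein that coats autophagosomes. MAP1LC3B ran from 26.1 to 34.6 CPM in mono-culture and from 34.7 to 86.1 CPM in co-culture, so that the groups nearly met without overlapping (log2 fold change 0.83, SE 0.17, edgeR adjusted p = 0.0073, and 0.0477 with the block). Of 31 glycolysis genes 3 rose and 0 fell (9.68%; median 0.36; 1 without mono-culture replicate 6 or co-culture replicate 1 or 8, and 8 without co-culture replicate 5), and 0 passed with the block in edgeR. The glycolytic enzyme GAPDH was higher within all 7 conceptuses, from a median of 5437 to 10790 CPM, but did not pass (log2 fold change 1.06, SE 0.35, edgeR adjusted p = 0.0624).

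Ligands and signalling proteins made up several of the strongest consistent genes. EFNA3 and EFNA4 encode ephrins, membrane-anchored ligands of Eph receptor kinases that act between touching cells. EFNA3 ran from 2.94 to 9.71 CPM in mono-culture (median 6.93) and from 6.55 to 75.8 CPM in co-culture (median 20.3; log2 fold change 2.07, SE 0.41, edgeR adjusted p = 0.00744). EFNA4 ran from 8.36 to 23.7 CPM in mono-culture and from 16.4 to 87.0 CPM in co-culture (log2 fold change 1.59, SE 0.34, edgeR adjusted p = 0.00917). Both overlapped between groups and both rose within every conceptus, a condition of the consistent genes. The family was then counted after these values were seen: 2 of 8 ephrins and 0 of 10 Eph receptors passed, with median log2 fold changes of -0.16 and -0.23. EFNA1 (0.58, SE 0.21, edgeR adjusted p = 0.0852) and EFNB1 (-0.83, SE 0.45, adjusted p = 0.262) leaned in opposite directions without passing.

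FLT3LG, a growth factor of hematopoietic and dendritic cells, rose from a median of 1.08 to 3.14 CPM (log2 fold change 1.66, SE 0.28, edgeR adjusted p = 0.00312, and 0.0299 with the block). TGFB1, the transforming growth factor ligand, rose from a median of 36.4 to 78.5 CPM (log2 fold change 1.15, SE 0.24, edgeR adjusted p = 0.00782, and 0.0395 with the block), and higher levels were seen within 6 of 7 conceptuses. LTBP3, which binds latent TGF-beta in the matrix, rose by 1.60 (SE 0.35, adjusted p = 0.0104) but not with the block (adjusted p = 0.07). These were the 2 genes that rose among 49 of the TGF-beta and BMP list. That list was called about as often as all genes (6.12% against 6.33%). TGFBR1, a receptor of the pathway, was the 1 that fell (-0.65, SE 0.20, edgeR adjusted p = 0.0486). That call ended when any one of 14 libraries was left out, and over all 17 such models its adjusted p ran from 0.0343 to 0.0887. Without co-culture replicate 5, 5 genes of this list rose.

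MAPK3, the kinase ERK1, rose from 38.3 to 72.0 CPM in mono-culture to 71.7 to 137 CPM in co-culture, with medians of 56.5 and 108 CPM (log2 fold change 0.89, SE 0.16, edgeR adjusted p = 0.00362, and 0.0299 with the block). GDPD3, a neighbour that overlaps MAPK3 in the RefSeq annotation, also rose (1.12), and reads of overlapping genes may be shared. Of 44 genes in the MAPK feedback list 3 rose and 1 fell (9.09% called against 6.33% of all genes), with a median of 0.11. In 10 of the 17 models with 1 library left out only ERRFI1 rose. The gene that fell was DUSP7, a phosphatase of ERK kinases (-0.82, SE 0.18, edgeR adjusted p = 0.0115). ERRFI1, a feedback inhibitor of the EGF receptor, rose 2.30-fold (SE 0.29 on the log2 scale, adjusted p = 0.0182). Neither passed with the block (0.0589 and 0.0651). DUSP28, a further dual-specificity phosphatase outside the list, fell by 0.80 (SE 0.13, edgeR adjusted p = 0.00233, and 0.0362 with the block) with no overlap between groups.

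Single genes of the membrane and the cytoskeleton were among the consistent higher genes, while in the actin and myosin list 1 of 50 genes passed (2.0% against 6.33% of all genes; median 0.03). EML2, a microtubule-binding protein, ran from 11.1 to 24.0 CPM in mono-culture and from 24.8 to 38.6 CPM in co-culture, and FLOT1, a scaffold of membrane microdomains, from 75.1 to 129 CPM and from 153 to 247 CPM. In neither gene did the groups overlap. Their log2 fold changes were 0.97 (SE 0.16, edgeR adjusted p = 0.00233) and 0.93 (SE 0.17, adjusted p = 0.0038). BAIAP2, an actin and membrane-curving adaptor protein, rose by 0.82 (SE 0.15, adjusted p = 0.00362). CARMIL2, a regulator of actin capping, rose by 1.69 (SE 0.35, adjusted p = 0.00782), and ACD, which overlaps it in the annotation, rose by 0.62. NINJ1, a membrane protein of cell adhesion and of plasma membrane rupture, rose from a median of 3.38 to 10.6 CPM (log2 fold change 1.52, SE 0.34, edgeR adjusted p = 0.0108, and 0.0383 with the block).

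Among the consistent higher genes of other kinds, CCDC138, a protein of little known function, did not overlap between groups: it ran from 1.28 to 2.97 CPM in mono-culture and from 3.22 to 10.2 CPM in co-culture (log2 fold change 1.57, SE 0.28, edgeR adjusted p = 0.0038). DCK, the kinase that salvages deoxynucleosides, rose by 1.08 (SE 0.24, adjusted p = 0.0109), and GRAMD1A, a carrier of cholesterol from the plasma membrane, by 1.05 (SE 0.21, adjusted p = 0.00763). PER1, a repressor of the circadian clock, ran from 7.66 to 13.3 CPM in mono-culture and from 13.5 to 24.0 CPM in co-culture (log2 fold change 0.86, SE 0.19, edgeR adjusted p = 0.0117, and 0.0489 with the block). Its groups did not overlap. Of 20 clock genes 3 rose and 0 fell (15.0% called against 6.33% of all genes), with a median of 0.35. The number that rose was 2 without mono-culture replicate 6 or co-culture replicate 8 and 5 without co-culture replicate 5. PER2, the paralog of PER1, leaned the other way without passing (-0.86, SE 0.27, edgeR adjusted p = 0.0506).

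RNA-binding and zinc-finger proteins were also among the higher genes. DDX50, a nucleolar RNA helicase, ran from 31.2 to 62.2 CPM in mono-culture and from 57.1 to 112 CPM in co-culture (log2 fold change 0.87, SE 0.15, edgeR adjusted p = 0.00362). ZCCHC7, a component of the complex that adds short tails to nuclear RNAs for decay, ran from 11.0 to 16.1 CPM and from 19.2 to 33.0 CPM (0.90, SE 0.15, adjusted p = 0.00319), and ZFAND1, which helps clear stress granules, from 14.7 to 25.1 CPM and from 25.2 to 44.3 CPM (0.83, SE 0.15, adjusted p = 0.00379). The groups of ZCCHC7 and ZFAND1 did not overlap, and those of DDX50 did. CCDC112, a coiled-coil protein, rose by 1.34 (SE 0.28, adjusted p = 0.00878). Some higher genes with a large fold change were less secure. SNCG, gamma-synuclein, rose by 1.69 (SE 0.48, edgeR adjusted p = 0.0358, up to 0.0692 with 1 library left out, where the call ended without any one of 11 libraries). GUCA1A, a calcium sensor of photoreceptor guanylate cyclase, rose by 1.59 (SE 0.42, adjusted p = 0.0277), a call that ended without mono-culture replicate 6, co-culture replicate 1 or co-culture replicate 8 (adjusted p up to 0.0604).

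Transcripts of protein synthesis and folding were higher, but their calls depended on single libraries. Of 83 cytosolic ribosomal protein genes 33 rose and 0 fell (39.8% called against 6.33% of all genes), with a median log2 fold change of 0.63. Within all 7 conceptuses 72 of them were higher, as were 7.19% of all genes. With the conceptus as a block 0 of the 83 passed by edgeR's test. In the main model the count was 63 without co-culture replicate 5, 56 without co-culture replicate 3, 51 without co-culture replicate 2, and between 0 and 9 without any one of the 8 mono-culture libraries or of co-culture replicates 1, 7, 8 and 9. The share of all counts in ribosomal protein genes ran from 6.12% to 7.19% in mono-culture and from 6.78% to 15.4% in co-culture. It was higher in co-culture within all 7 conceptuses, by 1.87 percentage points on average (SD 1.31, exact sign-flip permutation p = 0.0156, the smallest that 7 conceptuses can give, and 0.172 adjusted over 11 measures). The highest library was co-culture replicate 8, conceptus 47 on uterus 54. Ribosomal proteins have many processed pseudogenes, and the handling of multiply aligned reads was not stated.

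Other lists of this kind had positive medians, which were smaller once the log2 TMM factor was a covariate. Translation factors had 7 higher and 0 lower of 41 (median 0.29), heat shock chaperones 4 and 0 of 35 (median 0.34), endoplasmic reticulum folding genes 7 and 1 of 35 (median 0.39) and nuclear genes of the respiratory chain 2 and 0 of 73 (median 0.38). The shares called were 17.1%, 11.4%, 22.9% and 2.74% in this order, against 6.33% of all genes. Respiratory chain genes were thus called less often than all genes. With that covariate the medians were 0.020, 0.14, 0.12 and 0.0037 in the same order, and 0.22 for ribosomal proteins. Without co-culture replicate 8 the median of ribosomal proteins was 0.41 and that of the respiratory chain 0.19. With the block, 0 members of these lists passed in edgeR. The counts rested on few libraries: without co-culture replicate 8 they were 0, 2, 3 and 0, and without co-culture replicate 7 they were 0, 2, 1 and 0. Without co-culture replicate 5 they were 11, 7, 9 and 2. HSPD1, the mitochondrial chaperonin, did not overlap between groups (306.9 to 469 CPM in mono-culture and 477 to 1159 CPM in co-culture; log2 fold change 0.98, SE 0.22, edgeR adjusted p = 0.0108). Without mono-culture replicate 4 the counts were 0, 3, 3 and 0. MRPL45, a protein of the mitochondrial ribosome and a consistent gene, rose from a median of 136 to 308 CPM (log2 fold change 1.13, SE 0.21, edgeR adjusted p = 0.0041, and 0.0392 with the block), and changed by less than 0.01 in conceptus 50.

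**Figure D5:**
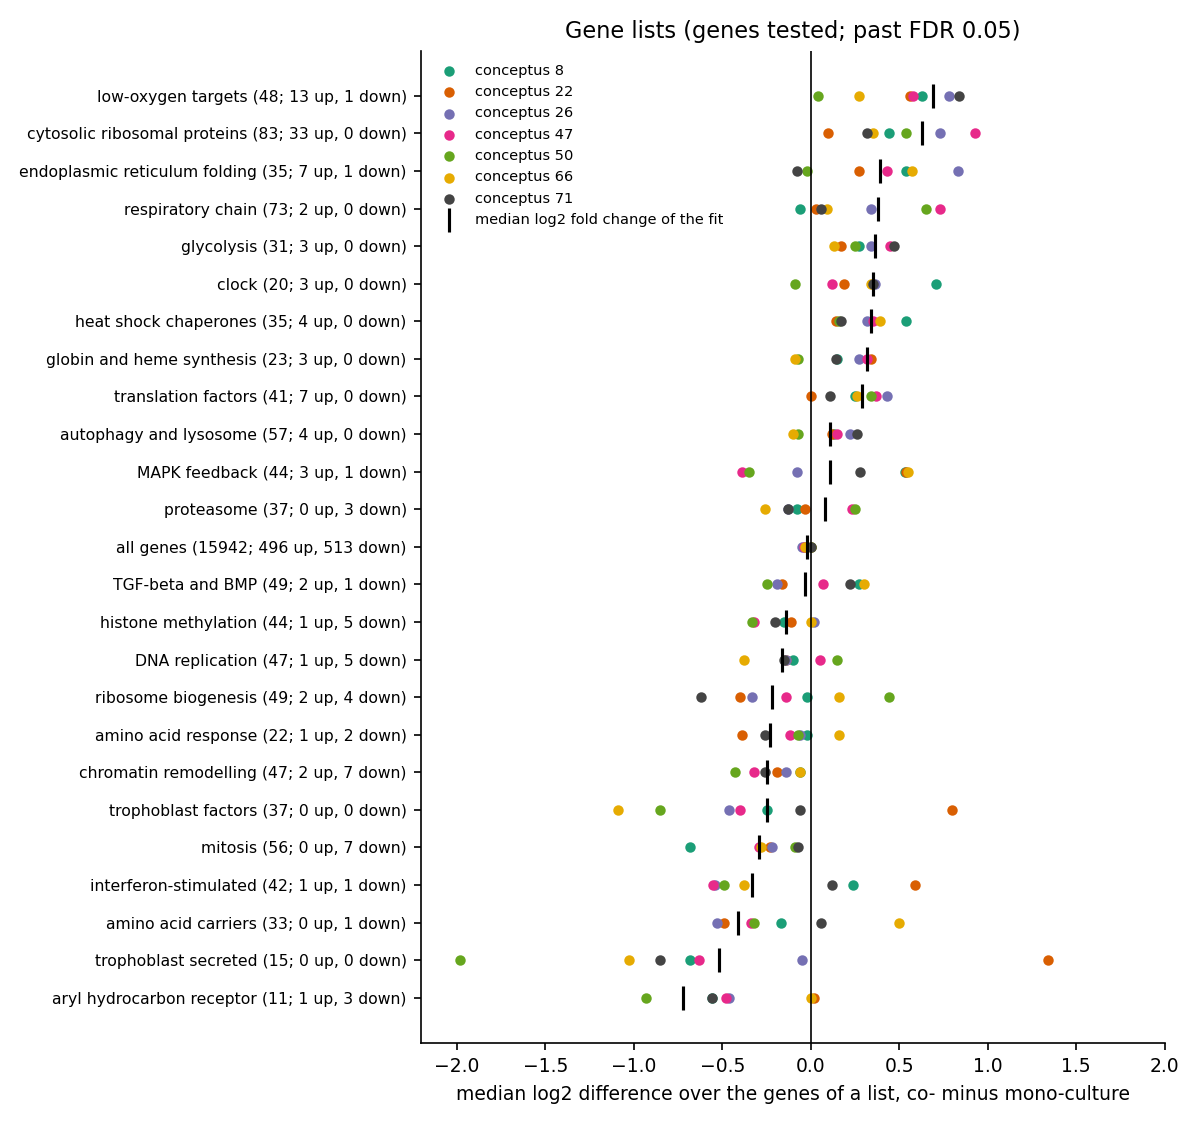
Median log2 difference (co-culture minus mono-culture) over the genes of each list, one coloured point per conceptus and a black bar for the fitted median, with the number of genes tested and the numbers past FDR after each name. The low-oxygen and ribosomal lists lie to the right of 0 in all 7 conceptuses, the mitosis list lies to the left in all 7, and the trophoblast lists spread on both sides.

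The direction of change also varied with gene length. Over the 86.2% of tested genes with a genomic span in RefSeq, the median log2 fold change was 0.10 in the shortest of 4 equal groups (median span 5.18 kb), 0.00 and -0.05 in the middle groups and -0.15 in the longest (median span 124 kb). In the shortest group 171 genes rose and 66 fell, and in the longest 51 rose and 152 fell. The difference between shortest and longest was largest in conceptus 50 (0.193 against -0.275) and conceptus 47 (0.207 against -0.269). Ribosomal protein genes had a median span of 3.51 kb and chromatin remodelling genes one of 87.8 kb, and the part of gene length or RNA quality in either list was not tested. Co-culture libraries had the lower log2 TMM factor in 6 of 7 conceptuses (by -0.147 on average, exact sign-flip permutation p = 0.0469, and 0.172 adjusted over 11 measures). With that factor as a covariate, added after the data were seen, 191 genes passed, 74 higher and 117 lower.

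Chromatin genes and single genes of DNA repair were among those that fell. BARD1, the partner of BRCA1 in a ubiquitin ligase of homologous recombination, shared the smallest adjusted p of the lower genes with PRRG4. It ran from 42.1 to 74.0 CPM in mono-culture (median 54.5) and from 10.1 to 35.2 CPM in co-culture (median 27.3). Every co-culture library lay below every mono-culture library (log2 fold change -1.13, SE 0.17, edgeR adjusted p = 0.00155, and 0.0299 with the block). BRCA1 itself did not pass (0.18, SE 0.13, adjusted p = 0.434). NABP1, a single-stranded DNA binding protein of damage signalling, fell 2.35-fold (SE 0.34 on the log2 scale, edgeR adjusted p = 0.0331), but not without any one of 8 libraries (adjusted p up to 0.0665). Of 47 DNA replication genes 5 fell and 1 rose (12.8% called against 6.33% of all genes), with a median of -0.16. The number that fell was 3 without mono-culture replicate 1 or co-culture replicate 7 or 8. In this list POLD3, a subunit of DNA polymerase delta, was the one that also passed with the block (-0.79, SE 0.19, edgeR adjusted p = 0.0183, and 0.044 with the block).

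Chromatin proteins with no overlap between groups included, outside the list or in it, BAZ1B, a bromodomain subunit of ISWI-type remodelling complexes, ACTR5, an actin-related subunit of the INO80 complex, and PBRM1, a subunit of the PBAF complex. BAZ1B ran from 92.0 to 157 CPM in mono-culture and from 33.7 to 87.7 CPM in co-culture (log2 fold change -0.93, SE 0.15, edgeR adjusted p = 0.00233, and 0.0313 with the block). ACTR5 ran from 5.82 to 9.98 CPM and from 2.56 to 4.58 CPM (-0.95, SE 0.15, adjusted p = 0.00233). PBRM1 fell by 0.67 (SE 0.16, adjusted p = 0.0176) but did not pass with the block (0.0654). Across the chromatin remodelling list 7 genes fell and 2 rose of 47 (19.1% called against 6.33% of all genes), with a median of -0.25. Those that fell included the acetyltransferase CREBBP (-0.74, SE 0.18, adjusted p = 0.0199, and 0.0775 with the block) and the deacetylase SIRT1 (-0.82, SE 0.19, edgeR adjusted p = 0.0141, and 0.0489 with the block). The number that fell stayed between 5 and 9 without any single library, and the number that rose between 0 and 2, but with the conceptus as a block 1 fell and 0 rose, and 2 fell without 3 libraries together (mono-culture replicate 1 and co-culture replicates 5 and 8). Of 44 histone methylation genes 5 fell and 1 rose (13.6% called against 6.33% of all genes), with a median of -0.14. The number that fell was 1 without mono-culture replicate 1 or co-culture replicate 7 or 8 and 2 without mono-culture replicate 8. Without co-culture replicate 5, 5 rose. NSD1, a methyltransferase of histone H3, fell by 0.89 (SE 0.22, adjusted p = 0.0195), and KDM6B, a demethylase, rose by 0.84 (SE 0.22, adjusted p = 0.0266). With the block, 0 members of the histone methylation list passed in edgeR, and KDM6B also did not pass without mono-culture replicate 1, co-culture replicate 1 or co-culture replicate 7 (adjusted p up to 0.0559). RNF40, a ubiquitin ligase that modifies histone H2B, fell by 0.68 (SE 0.12, edgeR adjusted p = 0.00312) with no overlap.

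Cell division genes leaned lower. Of 56 mitosis genes 7 fell and 0 rose (12.5% called against 6.33% of all genes), with a median of -0.29. Within all 7 conceptuses 25 were lower and 1 higher, where 7.65% of all genes were lower and 7.19% higher. The median was negative in every conceptus, from -0.68 in conceptus 8 to -0.07 in conceptus 71. The count of calls was 0 without mono-culture replicate 1, co-culture replicate 7 or co-culture replicate 8, 2 without co-culture replicate 1, 3 without mono-culture replicate 2 or 4, 4 without mono-culture replicate 6 or 7 and 16 without co-culture replicate 4. CDC25A, a phosphatase that activates cyclin-dependent kinases, was the one member that passed with the block (adjusted p = 0.0489, log2 fold change -1.25, SE 0.36, edgeR adjusted p = 0.037 in the main model). That call ended without any one of 9 libraries, and with each single library left out the log2 fold change ran from -1.51 to -0.89.

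Factors of ribosome assembly were found among the genes that fell. URB2, a nucleolar protein of ribosome biogenesis, ran from 15.2 to 33.6 CPM in mono-culture and from 5.03 to 20.3 CPM in co-culture (log2 fold change -1.24, SE 0.23, edgeR adjusted p = 0.00511, and 0.0299 with the block). POLR1B, a catalytic core subunit of RNA polymerase I, ran from 29.5 to 55.2 CPM and from 14.6 to 33.9 CPM (-0.81, SE 0.19, adjusted p = 0.016, and 0.0454 with the block). Both were lower within all 7 conceptuses, a condition of the consistent genes, with some overlap of the groups. Other nucleolar factors were found in the consistent set after their values were seen, namely NOL6 (-1.15, SE 0.25, adjusted p = 0.0108), NOL9 (-1.11, SE 0.22, adjusted p = 0.00744), HEATR1 (-0.69, SE 0.16, adjusted p = 0.0154) and RBM19 (-0.62, SE 0.14, adjusted p = 0.0108), all by edgeR. The set also held nucleolar factors that rose with no overlap between groups, namely TAF1D, a subunit of an RNA polymerase I initiation factor (1.02, SE 0.20, edgeR adjusted p = 0.00683), and NEPRO (0.60, SE 0.12, adjusted p = 0.00782). In the ribosome biogenesis list as a whole 4 genes fell and 2 rose of 49 (12.2% called against 6.33% of all genes), with a median of -0.22. The number that fell was 16 without co-culture replicate 5, 1 without mono-culture replicate 1 or co-culture replicate 8 and 2 without mono-culture replicates 4, 6 or 8 or co-culture replicates 1, 7 or 9. Conceptus 50 was the one with the most positive median (0.44).

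Regulators of metabolism and cell death were lower at single genes. TIGAR, a phosphatase that limits glycolysis, ran from 5.00 to 11.9 CPM in mono-culture and from 2.19 to 5.69 CPM in co-culture (log2 fold change -1.08, SE 0.21, edgeR adjusted p = 0.00683, and 0.0408 with the block). The groups overlapped narrowly, and it was lower within all 7 conceptuses, a condition of the consistent genes. DAPK1, a calcium-regulated kinase of cell death, fell 2.34-fold (SE 0.24 on the log2 scale, edgeR adjusted p = 0.00622, and 0.0313 with the block).

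PRRG4, a transmembrane protein with a vitamin K dependent Gla domain, ran from 15.5 to 42.0 CPM in mono-culture (median 29.4) and from 3.81 to 15.2 CPM in co-culture (median 9.38; log2 fold change -1.63, SE 0.24, edgeR adjusted p = 0.00155, and 0.0299 with the block), and no co-culture library reached the lowest mono-culture library. The margin was narrow in conceptus 26, whose section on uterus 14 held 15.2 CPM against 15.5 CPM in mono-culture. UGT1A6, a glucuronidation enzyme that the aryl hydrocarbon receptor induces, fell by 2.30 (SE 0.46, edgeR adjusted p = 0.00744). Its mono-culture levels ran from 11.3 to 184 CPM (median 22.4) and its co-culture levels from 3.73 to 12.3 CPM (median 8.96). The highest library was mono-culture replicate 1, conceptus 5, and without it the log2 fold change was -1.38 (adjusted p = 0.0226). UGT1A6 shares its locus and exons with other UGT1A genes. Of 11 genes of the aryl hydrocarbon receptor list 3 fell and 1 rose (36.4% called against 6.33% of all genes), with a median of -0.72. The number that fell was 1 without mono-culture replicate 1 or 6 or co-culture replicate 1, 7 or 8, and with the block 1 fell and 0 rose. The median was -0.23 without mono-culture replicate 2. The receptor's best known target, CYP1A1, did not pass (-2.76, SE 1.01, edgeR adjusted p = 0.0925; medians of 12.3 and 0.603 CPM), nor did TIPARP (0.20, SE 0.20, adjusted p = 0.591).

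Amino acid handling changed at single genes. ATF5, a transcription factor of the integrated stress response, ran from 8.76 to 18.5 CPM in mono-culture and from 2.91 to 8.88 CPM in co-culture (log2 fold change -1.35, SE 0.26, edgeR adjusted p = 0.00511, and 0.0317 with the block). The groups touched only through conceptus 50, which changed by -0.07 where the others changed by -1.06 to -2.14. SLC38A7, a lysosomal glutamine carrier, ran from 19.9 to 55.9 CPM and from 8.96 to 22.2 CPM (-1.08, SE 0.24, adjusted p = 0.0105, and 0.03 with the block). It was the 1 of 33 amino acid carriers that passed (3.03% called against 6.33% of all genes). The list median was -0.41, and 5 fell without co-culture replicate 5. In the amino acid response list 2 of 22 genes fell and 1 rose (13.6% called against 6.33% of all genes). The number that fell was 1 without mono-culture replicate 1, 3 or 4 or co-culture replicate 1, 7, 8 or 9.

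Other lower genes act in trafficking, turnover and signalling. SNX19, a sorting nexin, ran from 41.7 to 71.2 CPM in mono-culture and from 13.3 to 34.9 CPM in co-culture (log2 fold change -1.12, SE 0.19, edgeR adjusted p = 0.00296). PDE12, a mitochondrial exonuclease that trims poly(A) tails, ran from 13.1 to 23.7 CPM and from 5.48 to 9.57 CPM (-1.13, SE 0.17, adjusted p = 0.00195). ATP6V0A2, a subunit of the proton pump of acidic organelles, ran from 41.3 to 54.8 CPM and from 22.9 to 34.7 CPM (-0.67, SE 0.11, adjusted p = 0.00312). The groups of these 3 genes were separate. HUWE1, a large ubiquitin ligase, ran from 210.2 to 405 CPM and from 125 to 216 CPM, with a narrow overlap (-0.83, SE 0.14, adjusted p = 0.00312). PTPRM, an adhesive receptor phosphatase, fell by 1.52 (SE 0.40, adjusted p = 0.0263), a call that ended without mono-culture replicate 7, co-culture replicate 7 or co-culture replicate 8 (adjusted p up to 0.0565). NOX4, an NADPH oxidase, fell by 1.61 (SE 0.40, adjusted p = 0.022), a call that ended without mono-culture replicate 6 (adjusted p = 0.0519). RDH10, which makes retinal from retinol, fell 2.34-fold (SE 0.33 on the log2 scale, adjusted p = 0.0306), which did not pass without any one of 6 libraries (adjusted p up to 0.0646). All adjusted p are from edgeR.

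Further lower genes with a large change were PDZRN3, a ubiquitin ligase with PDZ domains (-1.47, SE 0.37, edgeR adjusted p = 0.0228), NFATC2IP, a protein with SUMO-like domains (-1.31, SE 0.30, adjusted p = 0.0122), and ARAP2, a GTPase-activating protein of Arf (-1.24, SE 0.29, adjusted p = 0.0158). Each was lower within all 7 conceptuses and passed with the block, which were conditions of the choice. All kept their calls without any single library. PDZRN3 lost its call without any one of 4 conceptuses, ARAP2 without any one of 3 and with the TMM covariate, and NFATC2IP without 1. PSMD12, a lid subunit of the proteasome, ran from 73.0 to 126 CPM in mono-culture and from 43.8 to 82.9 CPM in co-culture (-0.58, SE 0.13, edgeR adjusted p = 0.0108, and 0.0499 with the block). It was 1 of 3 proteasome genes of 37 that fell, where 0 rose (8.11% called against 6.33% of all genes). The list median was 0.08 (-0.08 with the TMM covariate and -0.02 without co-culture replicate 8). The number that fell was 6 without co-culture replicate 5 and 1 without mono-culture replicate 8 or co-culture replicate 8.

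The trophoblast's own transcription factors and secreted products gave no call. Of 37 trophoblast factors and 15 trophoblast secreted products, 0 passed by edgeR's test, with medians of -0.25 and -0.52. The median of the secreted products changed sign with the model (0.015 in voom and 0.20 with a factor of unwanted variation) and was -0.09 without mono-culture replicate 7, so it has no settled direction. The interferon tau gene IFNT3 ran from 9.59 to 2927 CPM in mono-culture (median 1359) and from 75.1 to 2096 CPM in co-culture (median 962; log2 fold change -0.61, SE 0.66, edgeR adjusted p = 0.626), and was lower within 6 of 7 conceptuses. TKDP1, a trophoblast Kunitz domain protein, had medians of 11370 and 14780 CPM (0.12, SE 0.67, adjusted p = 0.944) and PAG2, a pregnancy-associated glycoprotein, of 1219 and 2064 CPM (0.41, SE 0.64, adjusted p = 0.747). PTGS2, the inducible prostaglandin synthase, was lower within 6 of 7 conceptuses (-0.16, SE 0.58, adjusted p = 0.903). The 95% intervals of the log2 fold change were wide, from -1.93 to 0.71 for IFNT3 and from -0.86 to 1.69 for PAG2, so that a 2-fold fall of IFNT3 or a 2-fold rise of PAG2 lies within them. The change of these products between cultures differed in size and direction from one conceptus to another. Within conceptuses the secreted products moved by medians from -1.98 in conceptus 50 to 1.34 in conceptus 22. OVOL1, a repressor that promotes trophoblast differentiation, was lower within all 7 conceptuses and passed with the block (adjusted p = 0.0425) but not in the main model (-0.50, SE 0.18, adjusted p = 0.0845). Of 42 interferon-stimulated genes 1 rose and 1 fell (4.76% called against 6.33% of all genes, median -0.33), and in most models with 1 library left out 0 did, with 4 higher without co-culture replicate 5.

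The response was not shown to be particular to IVD tissue. The test of the difference between the IVD and IVP changes called 0 genes (0%) in edgeR, with 281 at an unadjusted p under 0.05, and 0 in DESeq2, with 366 at that level. Without IVP co-culture replicate 1, an alternative added after the data were seen, it also called 0 in edgeR, with 193 at that level. If no gene differed, a share of about 0.05 of the genes tested would fall under that p, and all these counts are below it. The 0 calls therefore do not show that the IVD and IVP changes were equal. Of the 150 consistent genes, 147 (98.0%) had an IVP change in the same direction, against 76.4% of all genes tested, and without IVP co-culture replicate 1 these were 147 and 76.7%. The IVP medians were 0.57 for the genes higher and -0.65 for the genes lower in IVD co-culture, where the IVD medians were 1.02 and -0.96. These genes were chosen by their IVD change, which favours larger IVD values, so the medians do not compare the size of the responses. HBA changed by 4.87 in IVD and by 1.89 in IVP tissue (SE 0.83, edgeR adjusted p = 0.229 for the IVP change), and the difference of 2.97 (SE 1.02) did not pass (adjusted p = 1.00).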

How the data were processed

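Polyadenylated RNA of conceptus sections was sequenced from stranded libraries. The authors trimmed reads with Trimmomatic, aligned conceptus reads with HISAT2 and endometrial reads with STAR to ARS-UCD1.2 and counted them per gene with featureCounts, and they deposited whole-number counts, which are not normalized. The strand setting and the treatment of reads with several alignments are not given in the sources used here. A further 28 endometrial columns matched no sample used here and were left out. RefSeq positions (ARS-UCD2.0) served only for gene spans and overlaps. All conceptus libraries carry one batch label. The files hold 1 more IVD mono-culture library than the study's methods state.

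Conceptus counts were tested with the quasi-likelihood test of edgeR 4.0.16 (R 4.3.3) with TMM scaling, one mean for each of 4 groups over 29 libraries and a low-count filter (minimum count 10, total 15) that kept 15942 of 16149 genes. Adjusted p are Benjamini-Hochberg values over all genes tested, and CPM are TMM-scaled. Within-conceptus differences were taken on log2 CPM with a prior count of 1, averaging the co-culture sections of a conceptus. Library measures were compared by an exact two-sided sign-flip permutation test over 7 conceptuses. Depth was 58583647 to 104436922 counts per library. On data simulated for the IVD comparison with 15942 genes, the model recovered 63 of 100 genes changed by 1 on the log2 scale and 92 of 100 changed by 2. The simulated sections were independent, unlike real sections of one conceptus, and genes of low level were not among those changed. These shares therefore do not give the power of the real comparison.

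The conceptus number in the sample codes paired sections. Deviations of mono- and co-culture sections from their group means correlated with a median r of 0.607 (0.126 to 0.842 over 9 pairs) within a conceptus, against -0.139 between conceptuses. The number in the titles did not pair them (median -0.336 over 8 pairs). No libraries were near copies of one another (over 136 pairs, chi-square divided by its degrees of freedom was at least 113).

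Genes are named by this rule: among consistent genes that have a symbol and average 1 or more in log2 CPM, the 15 highest and 15 lowest fold changes; the 10 smallest p on each side; up to 4 members of each list described by smallest p; and a fixed group of globin, aryl hydrocarbon receptor, oxygen and trophoblast genes, of which AHRR was not among the genes tested. BRCA1, EFNA1, EFNB1, NOL6, NOL9, HEATR1, RBM19, TAF1D, NEPRO, ACD, GDPD3 and DCN were named after their values were seen. Members and lists were chosen with earlier results of these data known. Of 50 lists, 25 are described. Some genes and 1 list that meet the rule are not reported here.

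Alternatives were other size factors and filters, IVD libraries alone, blocks by conceptus or title number, summed sections, DESeq2 1.42.0, limma 3.58.1 voom with a random conceptus effect, a factor of unwanted variation, and leaving out each library or conceptus. The log2 TMM factor as covariate, the omission of uterus 38 conceptuses, the omission of 3 libraries together or of IVP co-culture replicate 1, and the other tests of the difference between IVD and IVP changes were added after the data were seen.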

Additional observations from a re-analysis of the deposited data

Results flagged for a closer look

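Within the mono-culture and co-culture groups, 17 of 158 groups of log2 CPM values held a library that stood apart from the others by Dixon's ratio of its gap to the whole range, where chance gives about 1 in 20. Co-culture replicate 5, the section of conceptus 50 on uterus 38, was the lowest library for BNIP3 (0.627), ERO1A (0.749), LTBP3 (0.713), MRPL45 (0.569), KDM6B (0.598) and PAG2 (0.537). Co-culture replicate 8, the section of conceptus 47 on uterus 54, was the lowest for BARD1 (0.631), DUSP28 (0.559), RNF40 (0.55), TGFBR1 (0.52) and SNX19 (0.495). Co-culture replicate 7, conceptus 26 on uterus 39, was the lowest for ACTR5 (0.516) and PER2 (0.516), and co-culture replicate 4, conceptus 47 on uterus 19, was the lowest for SNCG (0.504). Mono-culture replicate 1, the section of conceptus 5, was the lowest for BNIP3 (0.573), PTGS2 (0.716) and IFNT3 (0.575). The source of these differences was not tested.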

How the results depend on the processing

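The count of 1009 genes stayed within 1.5 times with no filter or one at a mean CPM of 1, RLE size factors, IVD libraries alone, summed sections and the omission of uterus 38 conceptuses (757 to 1321 genes). It fell to 206 with the conceptus as a replicate block, to 613 with that block in IVD libraries alone, to 191 with the log2 TMM factor as covariate and to 624 without 3 libraries together. The title number as a replicate block, which pairs unrelated conceptuses, gave 0 calls. More genes passed in DESeq2 (1927), limma voom (1843) and with 1 factor of unwanted variation (2346). Leaving out single libraries or conceptuses gave 214 to 1719 genes. Higher genes made up 49.2% of calls, 57.1% with RLE size factors, 56.9% in DESeq2 and 38.7% with the TMM covariate. Of 120 called genes among the 149 named, 0 reversed, 65 kept their call without each single library, 38 without each conceptus and 34 under 38 alternatives other than the title number block. Sign changes met uncalled genes and list medians. TKDP1 (0.12) was -0.039 with summed sections, -0.76 with the TMM covariate, -0.016 without 3 libraries and -0.10 to 0.41 with a library or conceptus left out. PTGS2 (-0.16) was 0.17 in voom, 0.035 with a factor of unwanted variation, 0.10 without uterus 38 conceptuses and -0.35 to 0.048 with a library or conceptus left out. With the TMM covariate PAG2 was -0.048 and the interferon-stimulated median 0.13. The proteasome median (0.08) was -0.083 with that covariate and -0.025 without 3 libraries, and the median of trophoblast secreted products (-0.52) was 0.015 in voom and 0.20 with a factor of unwanted variation. The cause was not tested.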
